A study of Mus musculus with 6 samples.

Results

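The genes of sterol and fatty acid synthesis were examined, with their SREBP regulators and with Ch25h, in colonies grown from adult mouse pancreatic cells. The 32 genes were listed by their known place in the pathway, with earlier results of these data known, so counts over them are a description: 18 enzymes of sterol synthesis, 8 enzymes of fatty acid synthesis, 5 regulators or carriers, and Ch25h. All 32 were found among the 11164 genes measured, and all 32 passed the minimum mean of 1 RPKM (reads scaled to transcript length and to library size) that was set for testing, in a set of 10829 genes. The colonies came from cells with high surface CD133 and low CD71, sorted from the pancreas of C57Bl/6 mice aged 2 to 4 months. Sorted cells were exposed to lentivirus overnight, plated with puromycin and collected as colonies after 3 weeks in methylcellulose with Matrigel, serum, conditioned medium, RSPO1, nicotinamide, exendin-4 and activin B, conditions that all 3 groups share.

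The groups were Glis3 knockdown colonies (a pool of 5 shRNA clones against Glis3, a zinc-finger transcription factor), CD133 knockdown colonies (a pool of 5 clones against CD133, the membrane glycoprotein encoded by Prom1) and control colonies (a single shRNA with no mammalian target), with 2 libraries each, numbered 1 and 3. The control thus differs from both knockdowns in the number of shRNAs it carries, as well as in their target. The labels do not tie libraries 1 and 3 to different mice or cultures, so p-values measure only the spread between these libraries, which may be technical. Glis3 RNA was 50.3% of control in Glis3 knockdown colonies and Prom1 RNA 46.6% of control in CD133 knockdown colonies. Estimated depth was 25.7 to 29.2 M reads (M, mega) per library. Of 10 ductal epithelial markers 9 were measured, at summed levels of 7377 to 8647 RPKM in Glis3 knockdown, 7488 to 7802 RPKM in CD133 knockdown and 9359 to 9958 RPKM in control libraries. Spp1 set the direction of these sums: the other 8 summed to 3209 to 3435 RPKM in Glis3 knockdown, 3601 to 4361 RPKM in CD133 knockdown and 2869 to 3225 RPKM in control libraries, a sum chosen after the data were seen. At an adjusted p under 0.05 by limma, 0 of the 9 differed from control in the Glis3 knockdown. In the CD133 knockdown 4 rose and 1 fell, where 8.16% of all genes were called higher and 3.64% lower. Of 8 fibroblast and 6 endothelial markers 0 are among the 11164 genes measured, and of 8 acinar markers 1 is, at 0.49 to 1.06 RPKM. The 4 of 7 endocrine markers that were measured summed to 12.2 and 6.04 RPKM in Glis3 knockdown, 2.61 and 0.86 RPKM in CD133 knockdown and 3.51 and 9.7 RPKM in control libraries.

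Cells make cholesterol from acetyl-CoA through mevalonate, isoprenoid units, squalene and lanosterol, and make fatty acids from the same precursor through malonyl-CoA. The transcription factors SREBP-1 and SREBP-2 (genes Srebf1 and Srebf2) drive both pathways. Scap escorts them from the endoplasmic reticulum to the Golgi, where proteases release their active part, and Insig proteins hold Scap back when sterols are abundant. Ch25h makes 25-hydroxycholesterol, an oxysterol that binds Insig and restrains this processing, and it is best known from macrophages. SREBPs bind sterol response elements in promoters beside NF-Y and Sp1 boxes.

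Promoters of 25 of the 32 genes were found in the RefSeq promoter table (GRCm38.p6), which covers 250 bases before and 50 after each start. The promoters below are shown because Hmgcs1 held the only match to the sterol response core among these genes, Mvk held the most NF-Y boxes of the 4, Insig1 encodes the sterol-sensing brake, and Ch25h fell in the Glis3 knockdown. Each is written 5′ to 3′ on the strand of its gene, from 250 bases before the RefSeq start up to that start or to the start of the GENCODE gene, whichever comes first. Capitals mark the sterol response core TCACNCCAC and the NF-Y box CCAAT on either strand (ATTGG on the opposite one). The windows are chr13:119690101-119690350 (plus strand), chr5:114444019-114444268 (plus), chr5:28071162-28071362 (plus) and chr19:34475165-34475398 (minus).
Hmgcs1: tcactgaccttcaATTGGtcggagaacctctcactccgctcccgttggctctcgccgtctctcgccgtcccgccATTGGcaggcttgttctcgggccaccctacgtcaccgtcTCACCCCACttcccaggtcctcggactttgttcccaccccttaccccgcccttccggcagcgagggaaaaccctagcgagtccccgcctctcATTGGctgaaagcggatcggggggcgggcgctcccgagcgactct
Mvk: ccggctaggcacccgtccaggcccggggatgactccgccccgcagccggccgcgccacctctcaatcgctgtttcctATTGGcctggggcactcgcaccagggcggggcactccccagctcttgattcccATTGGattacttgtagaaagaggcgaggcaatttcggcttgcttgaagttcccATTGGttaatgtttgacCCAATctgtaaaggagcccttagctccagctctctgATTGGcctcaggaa
Insig1: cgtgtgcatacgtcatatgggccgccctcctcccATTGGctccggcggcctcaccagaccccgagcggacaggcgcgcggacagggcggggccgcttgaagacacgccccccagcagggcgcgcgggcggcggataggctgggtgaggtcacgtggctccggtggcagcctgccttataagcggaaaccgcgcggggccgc
Ch25h: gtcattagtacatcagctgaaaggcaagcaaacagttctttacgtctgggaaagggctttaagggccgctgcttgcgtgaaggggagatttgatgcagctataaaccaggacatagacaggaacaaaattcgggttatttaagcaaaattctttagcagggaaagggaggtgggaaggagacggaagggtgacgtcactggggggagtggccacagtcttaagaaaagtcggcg

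The printed Hmgcs1 window held 1 sterol response core, whose first base is at -137 relative to the start, and 3 NF-Y boxes. Mvk held 5 NF-Y boxes, Insig1 held 1, and Ch25h held neither motif. Over the full windows and both strands, an NF-Y box was present in 14 of the 15 sterol synthesis genes with a promoter in the table (all but Acat2), in 2 of 5 fatty acid genes (Acly and Fasn) and in 3 of 4 regulators (Srebf1, Srebf2 and Insig1). The same letters were present in 43.1% of the 8788 measured genes with a promoter, counting any window of a gene. The sterol response core was in 1.42% of them and in 1 of the 25 genes here. The Sp1 box GGGCGG was in 14 of 15 sterol genes, against 71.4% of measured genes, and the E-box CACGTG in 3 of 15, against 12.2%. The Glis core TGGGGGGT was in none of the 25, against 1.67%. These matches describe letters in a short window and carry no test.

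Most enzymes of the first steps of sterol synthesis, up to farnesyl diphosphate, rose in both knockdowns. Idi1 (isopentenyl diphosphate isomerase; ENSMUSG00000058258.14, chromosome 13: 8885501 to 8892451, plus strand, GRCm38) was at 33.3 and 38.2 RPKM in Glis3 knockdown libraries 1 and 3, at 32.8 and 29.1 RPKM in CD133 knockdown libraries and at 15.4 and 19.3 RPKM in control libraries. Both knockdowns lay wholly above control, and the lower Glis3 knockdown library was just above the higher CD133 knockdown library. On the scale of log2(RPKM + 1) it was 1.005 higher in the Glis3 knockdown than in control (SE 0.12, 95% confidence interval 0.72 to 1.29), with an adjusted p of 0.00775 by limma. Against control the CD133 knockdown was 0.80 higher (SE 0.12, interval 0.52 to 1.09, adjusted p = 0.017). About 21.3% of the 50-base words of its longest transcript also occur in other annotated genes, so some of its reads could be ambiguous.

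Hmgcs1, the cytosolic HMG-CoA synthase (ENSMUSG00000093930.2, chromosome 13: 119690379 to 119708260, plus strand), had the highest levels of the 18 enzymes. It was at 61.3 and 66.5 RPKM in Glis3 knockdown, 68.9 and 56.3 RPKM in CD133 knockdown and 33.3 and 38.2 RPKM in control libraries. The knockdown ranges overlapped each other and neither reached the control range. Against control it rose by 0.82 on the log2 scale in Glis3 knockdown colonies (interval 0.56 to 1.08, adjusted p = 0.00949), and the rise was 0.79 in CD133 knockdown colonies (interval 0.53 to 1.05, adjusted p = 0.0151).

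The mevalonate kinases were also higher in both knockdowns than in control. Mvk (mevalonate kinase) had 5.46 and 5.99 RPKM in Glis3 knockdown, 6.31 and 5.02 RPKM in CD133 knockdown and 3.63 and 3.79 RPKM in control libraries. Pmvk (phosphomevalonate kinase) had 6.50 and 7.34 RPKM in Glis3 knockdown, 6.03 and 6.09 RPKM in CD133 knockdown and 4.15 and 4.6 RPKM in control libraries. Both rose in each knockdown, with log2 fold changes of 0.51 and 0.56 in the Glis3 knockdown and 0.49 and 0.40 in the CD133 knockdown. Mvd, the decarboxylase that follows them, had 14.9 RPKM in each Glis3 knockdown library, 17.9 and 16.5 RPKM in CD133 knockdown and 11.4 and 13.2 RPKM in control libraries. It rose in the CD133 knockdown (log2 fold change 0.46, adjusted p = 0.0209) and did not pass in the Glis3 knockdown (0.26, adjusted p = 0.0749).

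Fdps (farnesyl diphosphate synthase) was listed at only 3.01 and 2.97 RPKM in Glis3 knockdown, 3.51 and 3.06 RPKM in CD133 knockdown and 1.57 and 2.13 RPKM in control libraries. Its level is the lowest of the sterol enzymes and is uncertain, because 86.4% of its 50-base words also occur in other annotated genes, 8 in number. At the estimated depth these values stand for about 58 to 125 reads per library. It rose by 0.49 on the log2 scale in Glis3 knockdown colonies (adjusted p = 0.0354), and the rise was 0.59 in CD133 knockdown colonies (adjusted p = 0.0244).

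Acat2, a cytosolic thiolase that makes acetoacetyl-CoA, was at 17.9 and 18.1 RPKM in Glis3 knockdown, 13.4 and 13.7 RPKM in CD133 knockdown and 15.0 and 16.2 RPKM in control libraries. The 3 groups did not overlap, with control between the knockdowns; 27.9% of all genes had both Glis3 knockdown libraries above both CD133 knockdown libraries. Neither difference from control passed (log2 fold change 0.19, adjusted p = 0.069 in the Glis3 knockdown; -0.19, adjusted p = 0.0733 in the CD133 knockdown). The CD133 value passed under quantile normalization (-0.23, adjusted p = 0.0474) and median centring (-0.24, adjusted p = 0.0473). Between the knockdowns it did pass, with Glis3 over CD133 at 0.38 (interval 0.25 to 0.52, adjusted p = 0.0229). Of its 50-base words 45.9% are shared with the neighbouring paralog Acat3.

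From the synthesis of squalene onward all 11 enzymes were called higher in the Glis3 knockdown and 9 in the CD133 knockdown. Of all genes 8.39% and 8.16% were called higher in these comparisons. Sqle (squalene epoxidase, a rate-limiting oxygenase) was at 27.1 and 27.9 RPKM in Glis3 knockdown, 23.3 and 20.6 RPKM in CD133 knockdown and 16.5 and 17.4 RPKM in control libraries. The 3 groups did not overlap and the CD133 knockdown lay between the other two. Sqle rose by 0.67 on the log2 scale (interval 0.50 to 0.84, adjusted p = 0.0061) in the Glis3 knockdown and 0.35 (interval 0.19 to 0.52, adjusted p = 0.0276) in the CD133 knockdown. Between the knockdowns the difference was 0.32 (interval 0.15 to 0.48, adjusted p = 0.0588), which did not pass.

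Cyp51 (lanosterol demethylase) was at 29.1 and 29.9 RPKM in Glis3 knockdown, 32.0 and 27.1 RPKM in CD133 knockdown and 16.5 and 18.7 RPKM in control libraries. The 2 knockdowns overlapped, well above control. The log2 fold change of Cyp51 from control was 0.72 in each knockdown (adjusted p = 0.00904 in the Glis3 knockdown and 0.0141 in the CD133 knockdown). The difference between knockdowns was 0.00 (interval -0.22 to 0.23). Exons of Cyp51 overlap those of Akap9 on the opposite strand, and the use of strand in counting is not given.

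Fdft1 (squalene synthase) rose by 0.54 in the Glis3 knockdown and by 0.48 in the CD133 knockdown on the log2 scale, with means of 38.7, 37.1 and 26.4 RPKM in Glis3 knockdown, CD133 knockdown and control colonies. Msmo1 (sterol methyl oxidase) rose by 0.56 and 0.63, and Nsdhl, which acts with it in removing methyl groups, by 0.43 and 0.43. Tm7sf2, a sterol reductase, rose by 0.53 and 0.48, although its exons overlap those of Vps51 on the same strand. Sc5d (sterol desaturase) rose by 0.39 and 0.45, Dhcr7, which reduces the immediate precursor of cholesterol, by 0.42 and 0.49, and Lss (lanosterol synthase) by 0.42 and 0.30, each with the Glis3 knockdown first.

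Hsd17b7 (a sterol ketoreductase) and Ebp (a sterol isomerase) passed only in the Glis3 knockdown. Hsd17b7 stood at 5.44 and 6.13 RPKM in Glis3 knockdown, 5.17 and 4.42 RPKM in CD133 knockdown and 3.49 and 3.85 RPKM in control libraries, with log2 fold changes of 0.54 (adjusted p = 0.0171) and 0.31 (adjusted p = 0.0742). Ebp stood at 23.4 and 25.4 RPKM in Glis3 knockdown, 23.2 and 21.7 RPKM in CD133 knockdown and 19.1 and 20.8 RPKM in control libraries, with log2 fold changes of 0.28 (adjusted p = 0.0464) and 0.17 (adjusted p = 0.161). The difference between the knockdowns itself did not pass for either gene (0.23, adjusted p = 0.213 for Hsd17b7 and 0.11, adjusted p = 0.389 for Ebp).

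**Figure D1:**
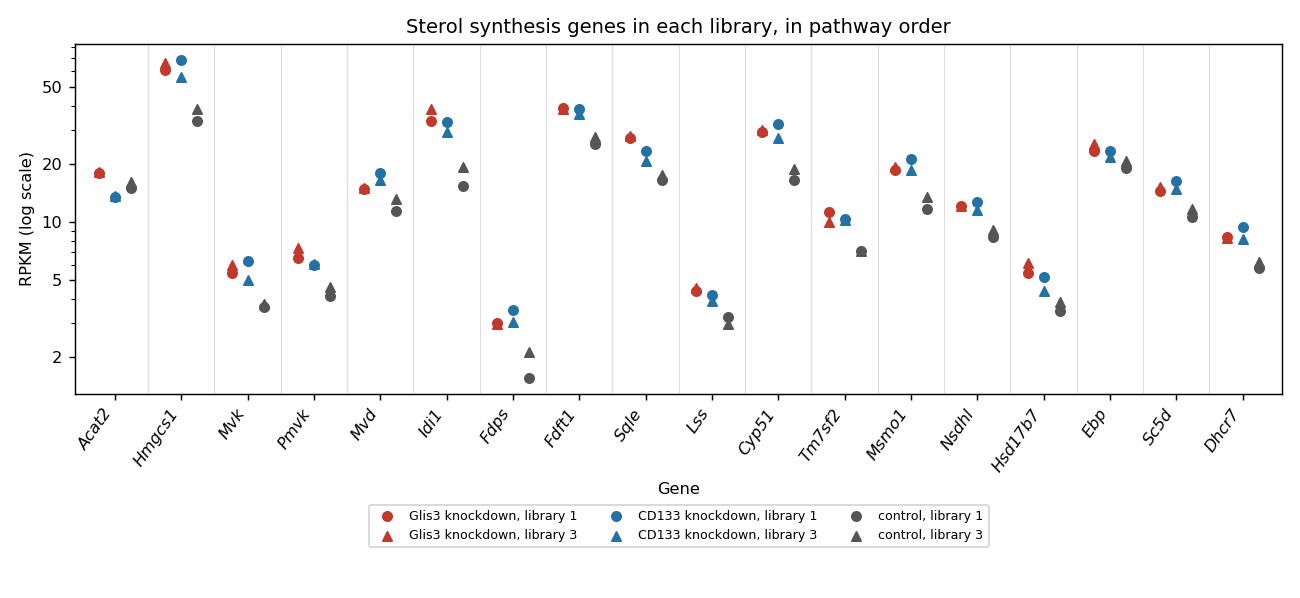
RPKM (log axis) of the 18 sterol synthesis genes in pathway order, with each point 1 library: Glis3 knockdown left, CD133 knockdown middle, control right within each gene. For 17 genes both libraries of each knockdown lie above both controls, while for Acat2 the CD133 knockdown lies below control.

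Counted together, 16 of the 18 sterol synthesis genes rose in the Glis3 knockdown with 0 falls, while 2 missed the threshold. Their log2 fold changes had a median of 0.52 and a range of 0.19 to 1.005. Of all 10829 genes tested, 12.9% were called in that comparison, 8.39% as higher, and the median of all was 0.04. In the CD133 knockdown 15 of 18 rose with 0 falls, and 3 missed the threshold. Their median was 0.47. Of all genes 11.8% were called there, 8.16% as higher, and the median of all was 0.04. The 2 knockdowns were set against the same control libraries, so these counts are not independent of each other. Both Glis3 knockdown libraries were above both controls for 18 of 18 genes (38.5% of all genes), and both CD133 knockdown libraries for 17 of 18 (40.3% of all genes).

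These calls rested on few libraries. With either control library left out, calls fell in both comparisons, over all genes as well as among the sterol genes. The same held in each knockdown with either of its own libraries left out. Losses were smaller without Glis3 knockdown library 1 or CD133 knockdown library 3 than without the other library of the group. The loss of calls was thus not particular to the sterol genes. The medians in those fits stayed between 0.47 and 0.56 in the Glis3 knockdown and between 0.39 and 0.52 in the CD133 knockdown, and no sterol gene changed direction against control under any alternative run.

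Summed over the 18 genes, sterol synthesis RNA reached 335.6 and 351.2 RPKM in Glis3 knockdown libraries 1 and 3, 344.9 and 306.9 RPKM in CD133 knockdown libraries 1 and 3, and 211.9 and 236 RPKM in control libraries 1 and 3. Library 1 of the CD133 knockdown was above library 3 for 16 of the 18 genes, by a median of 0.14 on the log2 scale. Among controls, library 3 was above library 1 for 17 of 18 genes, by a median of 0.12, and in the Glis3 knockdown library 3 was above library 1 for 13 of 18, by a median of 0.04. These shifts within a group were smaller than the medians between knockdown and control.

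The core enzymes of fatty acid synthesis did not pass the test. Acly (ATP citrate lyase, which supplies cytosolic acetyl-CoA) was at 78.3 and 84.3 RPKM in Glis3 knockdown, 73.9 and 71.1 RPKM in CD133 knockdown and 80.7 and 79.97 RPKM in control libraries. Acaca (acetyl-CoA carboxylase, the committed step) was at 9.63 and 12.8 RPKM in Glis3 knockdown, 8.23 and 8.22 RPKM in CD133 knockdown and 11.4 and 9.64 RPKM in control libraries. Fasn (fatty acid synthase) was at 32.5 and 38.1 RPKM in Glis3 knockdown, 37.7 and 37.4 RPKM in CD133 knockdown and 40.4 and 34.98 RPKM in control libraries. In the Glis3 knockdown all 3 overlapped control, and none of the 3 passed in any comparison.

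For these core enzymes the log2 fold changes in the Glis3 knockdown were 0.02 for Acly (interval -0.12 to 0.15, with a sign that turns negative under quantile normalization or median centring), 0.08 for Acaca (-0.23 to 0.39) and -0.09 for Fasn (-0.32 to 0.13). In the CD133 knockdown they were -0.15 for Acly (adjusted p = 0.142) and -0.31 for Acaca (adjusted p = 0.154), each with both libraries below both controls, as were 22.1% of all genes, and -0.002 for Fasn. The upper ends of the Glis3 knockdown intervals lie below the sterol median of 0.52 for all 3. Some sterol genes, such as Acat2 (0.19), Mvd (0.26) and Ebp (0.28), lie within the Acaca interval. The difference between the 2 pathways was not tested. About 52.6% of the 50-base words of Acaca occur also in the annotated locus Gm5182.

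The elongase and a desaturase at the lower end of the abundance range rose in the Glis3 knockdown. Elovl6, which elongates palmitate (ENSMUSG00000041220.10, chromosome 3: 129532355 to 129638495, plus strand), was at 4.24 and 5.32 RPKM in Glis3 knockdown, 4.15 and 3.70 RPKM in CD133 knockdown and 1.66 and 1.93 RPKM in control libraries. Every knockdown library was well above both controls. Elovl6 rose by 1.04 on the log2 scale in the Glis3 knockdown (interval 0.78 to 1.31, adjusted p = 0.00624), a ratio of mean RPKM of 2.66. The rise was 0.82 in the CD133 knockdown (interval 0.55 to 1.08, adjusted p = 0.0149), a ratio of 2.19.

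Scd1 and Scd2 encode closely related stearoyl-CoA desaturases and lay at opposite ends of the table. Scd1 (ENSMUSG00000037071.3, chromosome 19: 44394455 to 44407879, minus strand) was at 1.49 and 2.61 RPKM in Glis3 knockdown, 1.52 and 1.15 RPKM in CD133 knockdown and 0.60 and 0.44 RPKM in control libraries. Scd2 was at 330.2 and 329.2 RPKM in Glis3 knockdown, 358 and 336.6 RPKM in CD133 knockdown and 309 RPKM in each control library. By mean level over all libraries Scd2 stood at the 99.3 percentile of the table and Scd1 at the 5.7 percentile. Scd1 rose by 0.98 on the log2 scale in the Glis3 knockdown (interval 0.55 to 1.42, adjusted p = 0.0214), while 0.62 in the CD133 knockdown did not pass (adjusted p = 0.0729). Scd2 passed in neither (0.09, adjusted p = 0.343 and 0.17, adjusted p = 0.118). About 4.7% of the 50-base words of Scd1 are shared with Scd2 and other Scd loci, and whether Scd2 reads were counted to Scd1 was not tested.

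Fads1 and Fads2 encode desaturases of polyunsaturated fatty acid synthesis. Fads2 was at 42.99 and 44.98 RPKM in Glis3 knockdown, 36.0 and 38.9 RPKM in CD133 knockdown and 32.1 and 33.6 RPKM in control libraries, without overlap between any groups. Of all genes, 38.5% had both Glis3 knockdown libraries above both controls, 40.3% both CD133 knockdown libraries above both controls. For 27.9% both Glis3 knockdown libraries were above both CD133 knockdown libraries. Fads2 rose in the Glis3 knockdown (log2 fold change 0.41, adjusted p = 0.0121) and did not pass in the CD133 knockdown (0.18, adjusted p = 0.0973). Fads1 was at 17.3 and 17.5 RPKM in Glis3 knockdown, 13.2 and 15.1 RPKM in CD133 knockdown and 14.6 and 15.3 RPKM in control libraries, with log2 fold changes of 0.20 (adjusted p = 0.11) and -0.08 (adjusted p = 0.516). The difference between the 2 genes was not tested. Neither passed between knockdowns, with Fads1 at 0.28 (adjusted p = 0.0856) and Fads2 at 0.23 (adjusted p = 0.094).

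**Figure D2:**
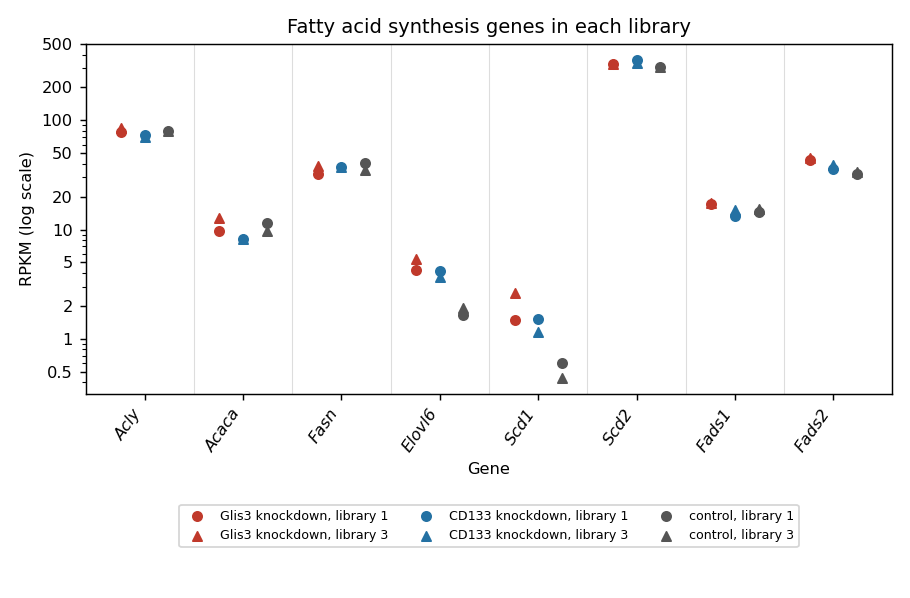
RPKM (log axis) of the 8 fatty acid synthesis genes, each point 1 library, with Glis3 knockdown left, CD133 knockdown middle and control right within each gene. Elovl6 and Scd1 lie higher in all 4 knockdown libraries than in control, while Acly, Acaca and Fasn of the Glis3 knockdown overlap control.

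In all, 3 of 8 fatty acid synthesis genes rose in the Glis3 knockdown, 0 fell and 5 missed the threshold (median 0.15 on the log2 scale), where 8.39% of all genes were called higher. The CD133 knockdown count was lower: 1 rose (Elovl6), 0 fell and 7 missed it (median 0.08), near the 8.16% of all genes called higher. With a minimum mean of 5 RPKM, which removes Elovl6 and Scd1, these counts became 1 and 0, and the CD133 median was -0.04. Leaving out either control library lost calls in both comparisons, over all genes as well as among the fatty acid genes. The same held in the CD133 knockdown without its library 1. The fatty acid medians in those fits were 0.164 and 0.179 in the Glis3 knockdown and 0.061 to 0.125 in the CD133 knockdown. Leaving out either Glis3 knockdown library, which changes the shared variance, raised the CD133 knockdown count, there taken as calls in either direction.

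Among the regulators, Insig1, Stard4 and Srebf2 rose in both knockdowns. Insig1 (ENSMUSG00000045294.11, chromosome 5: 28071363 to 28078662, plus strand), a sterol-responsive SREBP target as well as its brake, was at 22.3 and 21.7 RPKM in Glis3 knockdown, 18.9 and 18.8 RPKM in CD133 knockdown and 12.3 and 13.8 RPKM in control libraries. The groups did not overlap, with the CD133 knockdown in the middle. Both libraries lay above both controls for 38.5% of all genes in the Glis3 knockdown and 40.3% in the CD133 knockdown. Both Glis3 knockdown libraries were above both CD133 knockdown libraries for 27.9%. Against control Insig1 rose by 0.72 (interval 0.56 to 0.87, adjusted p = 0.00486) in the Glis3 knockdown and 0.50 (interval 0.35 to 0.65, adjusted p = 0.0138) in the CD133 knockdown. The value between the knockdowns, 0.22 (interval 0.06 to 0.37), did not pass (adjusted p = 0.119).

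Stard4, a cytosolic sterol carrier, had 9.54 and 10.6 RPKM in Glis3 knockdown, 8.35 and 6.95 RPKM in CD133 knockdown and 4.94 and 5.63 RPKM in control libraries. Again no groups overlapped and the CD133 knockdown lay between the others. Each such separation was common over all genes: 38.5% (Glis3 knockdown above control), 40.3% (CD133 knockdown above control) and 27.9% (Glis3 above CD133 knockdown). Stard4 rose by 0.82 in Glis3 knockdown (adjusted p = 0.0085) and 0.46 in CD133 knockdown colonies (adjusted p = 0.0351), while 0.36 between the knockdowns did not pass (adjusted p = 0.105).

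Srebf2, whose product chiefly drives sterol synthesis, was at 56.04 and 56.92 RPKM in Glis3 knockdown, 59.4 and 55.3 RPKM in CD133 knockdown and 46 and 46.74 RPKM in control libraries. It rose by 0.28 (interval 0.15 to 0.41, adjusted p = 0.0251) and 0.30 (interval 0.17 to 0.43, adjusted p = 0.0239) in the Glis3 and CD133 knockdowns. Srebf1, whose product chiefly drives fatty acid synthesis, was at 30.4 and 28.6 RPKM in Glis3 knockdown, 29.6 and 31.3 RPKM in CD133 knockdown and 28.01 and 26.46 RPKM in control libraries, and did not pass (0.11, adjusted p = 0.259 and 0.16, adjusted p = 0.134). The difference between the 2 genes was not tested. Scap had 17.8 and 18.4 RPKM in Glis3 knockdown, 18.92 and 19.04 RPKM in CD133 knockdown and 18.25 and 18.01 RPKM in control libraries, with a log2 fold change of 0.00 in the Glis3 knockdown (interval -0.12 to 0.12). In both comparisons with control 3 of 5 regulators rose and 0 fell, against 8.39% of all genes called higher in the Glis3 knockdown and 8.16% in the CD133 knockdown.

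Leaving out either control library lost regulator calls in both comparisons, as did leaving out either library of the knockdown compared. Calls over all genes fell in the same fits. The regulator medians there were 0.268 or 0.29 in the Glis3 knockdown and 0.249 to 0.349 in the CD133 knockdown.

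Ch25h was lower in the knockdowns. The gene (ENSMUSG00000050370.5, chromosome 19: 34473778 to 34475164, minus strand) was at 5.64 and 5.10 RPKM in Glis3 knockdown, 15.0 and 26.7 RPKM in CD133 knockdown and 36.9 and 36.8 RPKM in control libraries. The 3 groups did not overlap: the controls were nearly equal, the Glis3 knockdown libraries were low and close together, and the CD133 knockdown libraries lay between and apart from each other. Group means were 5.37 ± 0.382, 20.9 ± 8.24 and 36.9 ± 0.099 RPKM in Glis3 knockdown, CD133 knockdown and control (SD, n = 2 each).

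In the Glis3 knockdown Ch25h fell to 14.6% of control, or by 2.57 on the log2 scale (SE 0.22, interval -3.11 to -2.04, adjusted p = 0.00436), which ranked 2 among falls over 10829 genes. Of all genes 4.53% were called lower in that comparison, and 21.1% had both Glis3 knockdown libraries below both controls. CD133 knockdown colonies held 56.6% of the control level, a difference of -0.85 on the log2 scale (interval -1.38 to -0.31) that did not pass (adjusted p = 0.0548), where 3.64% of all genes were called lower. Glis3 knockdown over CD133 knockdown, Ch25h differed by -1.73 (interval -2.26 to -1.20, adjusted p = 0.0174), where 4.06% of all genes were called, 2.46% as lower, and 26.8% did not overlap in that direction.

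The Glis3 knockdown value lay between -2.76 and -2.01 under the alternatives run, but its adjusted p was 0.0646 with control library 1 left out and 0.0501 with control library 3 left out. The CD133 knockdown value changed with its own libraries: it was -0.45 (adjusted p = 0.0912) when library 1 was left out and -1.24 (adjusted p = 0.0135) when library 3 was. The call between the knockdowns was lost on leaving out control library 1 (adjusted p = 0.066), control library 3 (0.0661) or Glis3 knockdown library 3 (0.0572). An exon of the annotated locus Gm26902 overlaps Ch25h on the opposite strand.

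In bulk RNA, fewer cells that express Ch25h and less Ch25h RNA per cell cannot be told apart. Of 10 macrophage and leukocyte markers, Cd14 and Cd68 were measured. The other 8, Ptprc, Adgre1, Csf1r, Lyz2, Itgam, Tyrobp, Fcer1g and Laptm5, are not among the 11164 genes measured. Each gene of the table reached at least 1 RPKM in some library. Cd68 was at 6.33 and 5.73 RPKM in Glis3 knockdown, 6.39 and 5.12 RPKM in CD133 knockdown and 5.23 and 5.83 RPKM in control libraries. Cd14, which epithelial cells can express too, differed from control by -0.32 (adjusted p = 0.14) in the Glis3 knockdown, and the summed level of both was 298.9 to 372.4 RPKM there, 325.3 to 379 RPKM in the CD133 knockdown and 400.7 to 427.9 RPKM in control. The part of such cells in the Ch25h values was not tested.

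**Figure D3:**
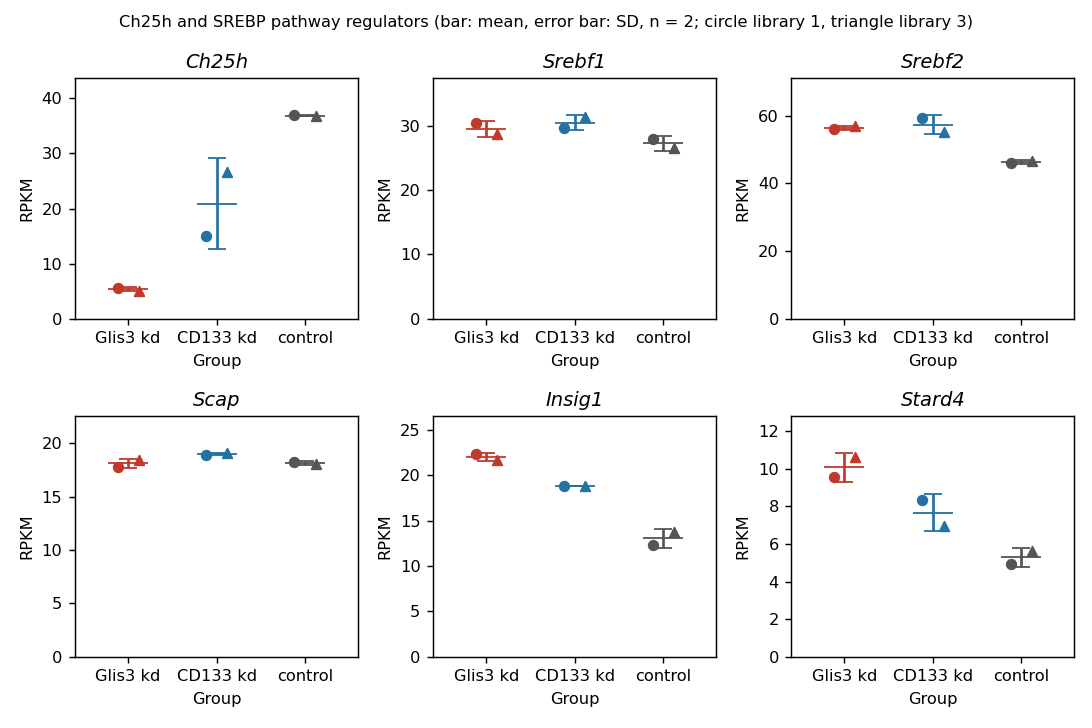
RPKM (linear axis from 0) of Ch25h and 5 regulators in each group, with Glis3 knockdown left, CD133 knockdown middle and control right; circles are library 1, triangles library 3, horizontal bars means and error bars SD (n = 2). Ch25h is lowest in the Glis3 knockdown. Insig1 and Stard4 have their highest means there, and Srebf1 and Srebf2 have theirs in the CD133 knockdown. No regulator passed between the knockdowns, and Scap is near level across groups.

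Set directly against each other, the knockdowns differed past the threshold in Ch25h and Acat2. Of 18 sterol synthesis genes 1 was higher in the Glis3 knockdown (Acat2), 0 were lower and 17 missed the threshold, with a median difference of 0.04 and a range of -0.20 to 0.38; 1.61% of all genes were called higher. No fatty acid gene and no regulator passed at an adjusted p under 0.05 by limma. At an unadjusted p under 0.05, which 21.9% of all genes reached, Mvd was lower in the Glis3 knockdown and Sqle, Hsd17b7, Acly, Acaca, Fads1, Fads2, Insig1 and Stard4 were higher. The intervals for Hmgcs1 (-0.23 to 0.30), Idi1 (-0.08 to 0.48), Cyp51 (-0.22 to 0.23) and Srebf2 (-0.15 to 0.11) bound the differences that these libraries leave possible. The Acat2 call was lost without each of 5 of the 6 libraries, the exception being Glis3 knockdown library 1.

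**Figure D4:**
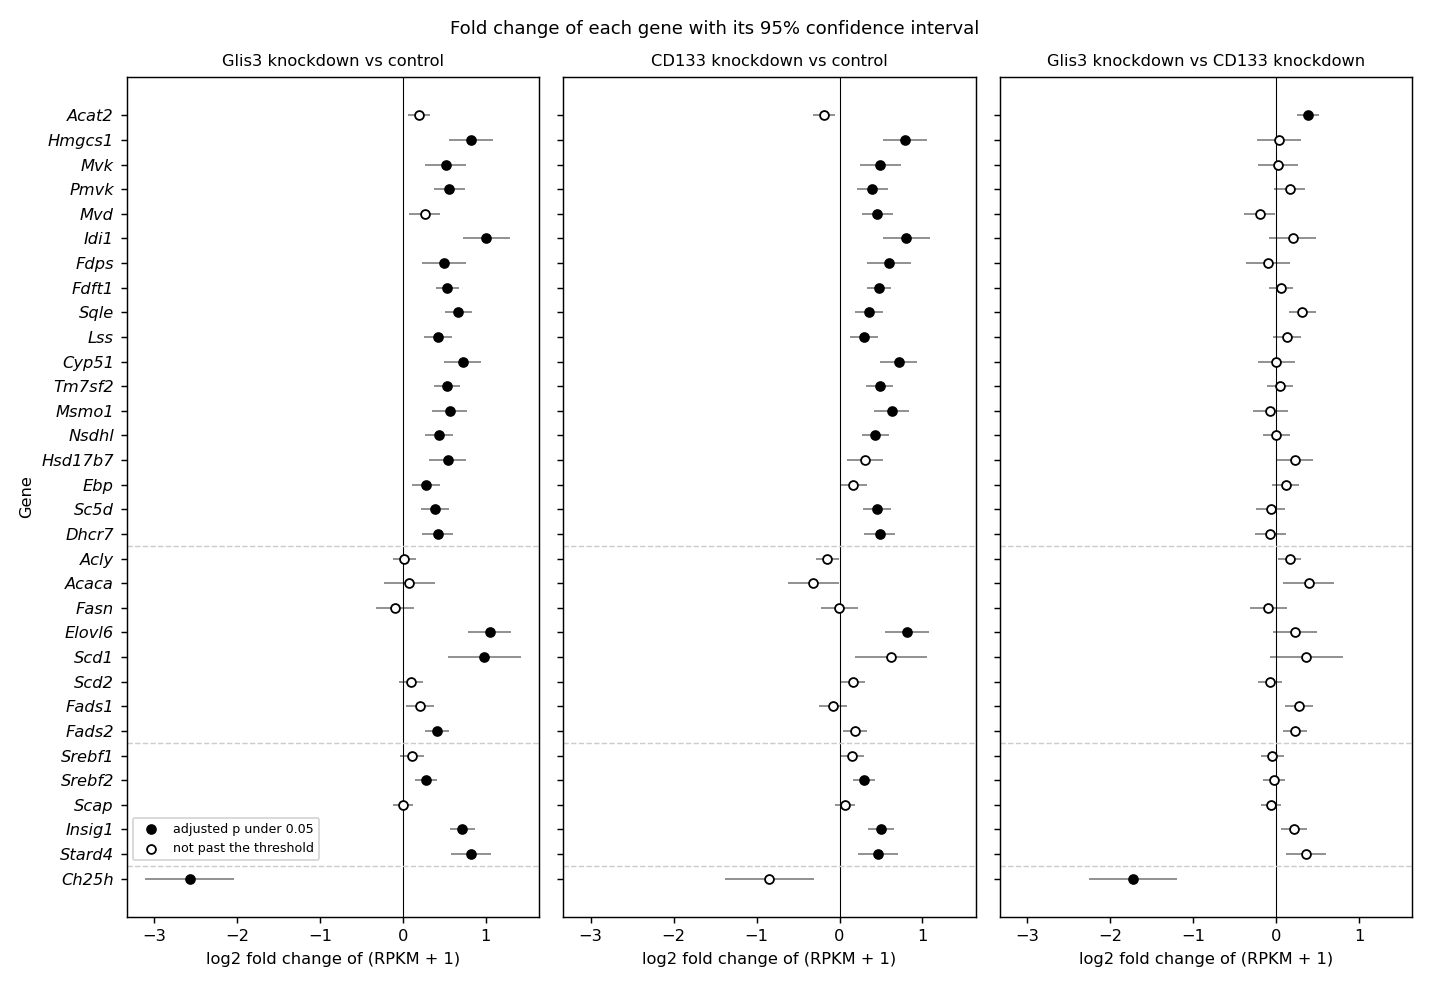
Log2 fold change of (RPKM + 1) with its 95% confidence interval for each of the 32 genes in 3 comparisons; filled points have an adjusted p under 0.05, and dashed lines part sterol synthesis, fatty acid synthesis, regulators and Ch25h. Sterol synthesis genes lie right of 0 in both comparisons with control, except Acat2 in the CD133 knockdown, while Ch25h lies left of 0 in all 3.

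Other genes of the pathway, were taken from lists drawn up by known function. Their counts stand beside 8.39% of all genes called higher and 4.53% called lower in the Glis3 knockdown, and 8.16% higher and 3.64% lower in the CD133 knockdown. Of 15 further sterol and isoprenoid genes 3 rose in the Glis3 knockdown and 4 in the CD133 knockdown, with 0 falls and medians of 0.07 and 0.06. Among them Lbr, a nuclear membrane protein with sterol reductase activity, had 12.4 and 13.6 RPKM in Glis3 knockdown, 14.2 and 13.7 RPKM in CD133 knockdown and 10.6 RPKM in each control library, and it rose by 0.27 and 0.36 on the log2 scale. Coq2, a prenyltransferase of ubiquinone synthesis, rose by 0.23 in the CD133 knockdown, while 0.16 in the Glis3 knockdown did not pass.

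Of 19 genes of SREBP transport, cleavage and turnover, 3 rose in the Glis3 knockdown, where 8.39% of all genes were called higher. In the CD133 knockdown 1 rose and 1 fell, near the 8.16% of all genes called higher and 3.64% called lower. Sec23a, a subunit of the COPII coat that carries Scap and SREBP out of the endoplasmic reticulum, was at 10.9 and 10.8 RPKM in Glis3 knockdown, 11.9 and 10.9 RPKM in CD133 knockdown and 6.97 and 6.91 RPKM in control libraries. Sec23a rose by 0.58 (adjusted p = 0.00624) and 0.64 (adjusted p = 0.0104) in the Glis3 and CD133 knockdowns. Mbtps2, the protease of the second SREBP cut, and Fbxw7, a ubiquitin ligase subunit that targets active SREBP, rose by 0.27 and 0.28 in the Glis3 knockdown. Their values of 0.185 and 0.208 in the CD133 knockdown did not pass. Neither gene passed between the knockdowns (0.085 and 0.071). Erlin2, a membrane protein of the endoplasmic reticulum, fell by 0.19 in the CD133 knockdown.

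Of 19 genes of sterol uptake and traffic, 2 rose and 3 fell in the Glis3 knockdown, and 2 rose and 2 fell in the CD133 knockdown, where the shares of all genes called higher were 8.39% and 8.16%. Tmem97, a sterol-regulated membrane protein that binds the cholesterol exporter of lysosomes, rose by 0.34 and 0.54. Npc2, the lysosomal cholesterol-binding protein, fell by 0.26 and 0.32, Cav1 (caveolin) fell by 0.52 and 0.47, and Lipa (lysosomal acid lipase) fell by 0.27 in the Glis3 knockdown.

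Liver X receptors, which oxysterols activate, and their efflux targets were represented by 8 genes. In the Glis3 knockdown 1 rose (Mylip, a ubiquitin ligase, by 0.28), 2 fell and the other 5 missed the threshold (median -0.10). Abcg1, a sterol exporter, was at 1.51 and 1.52 RPKM in Glis3 knockdown, 3.51 and 2.96 RPKM in CD133 knockdown and 2.74 and 2.75 RPKM in control libraries. It fell by 0.57 against control (adjusted p = 0.0121), and by 0.75 against the CD133 knockdown (adjusted p = 0.0142). Rxra (retinoid X receptor alpha) fell by 0.24. Against control, 0 of the 8 passed by limma in the CD133 knockdown, while 4 had an unadjusted p under 0.05, as had 31.1% of all genes. Mylip came nearest there (0.28, adjusted p = 0.0515). Abca1, the other main sterol exporter of the list, had 10.5 and 13.2 RPKM in Glis3 knockdown, 10.9 and 11.2 RPKM in CD133 knockdown and 16.1 and 13.6 RPKM in control libraries, and did not pass in the CD133 knockdown (-0.39, adjusted p = 0.0692). Of the enzymes and receptors of oxysterols other than Ch25h, Sult2b1, a sterol sulfotransferase, was the 1 measured, at means of 1.23, 2.15 and 1.48 RPKM in Glis3 knockdown, CD133 knockdown and control.

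Of 23 further fatty acid genes 4 rose in the Glis3 knockdown (8.39% of all genes) and 1 in the CD133 knockdown (8.16% of all genes), with 0 falls. Acss2 (acetyl-CoA synthetase) was at 2.74 and 2.66 RPKM in Glis3 knockdown, 1.80 and 1.60 RPKM in CD133 knockdown and 1.76 and 1.88 RPKM in control libraries, and Mid1ip1, an activator of acetyl-CoA carboxylase, was at 64.03 and 66.59 RPKM in Glis3 knockdown, 51.8 and 49.5 RPKM in CD133 knockdown and 51.02 and 49.44 RPKM in control libraries. Both rose in the Glis3 knockdown against control (0.39 and 0.37) and against the CD133 knockdown (0.46, adjusted p = 0.0362 and 0.36, adjusted p = 0.0229). Mlxipl, the carbohydrate-responsive transcription factor ChREBP, rose by 0.41 in the Glis3 knockdown. Its levels were low: 2.35 and 1.98 RPKM in Glis3 knockdown, 1.98 and 2.11 RPKM in CD133 knockdown and 1.54 and 1.24 RPKM in control libraries. The elongase Elovl7 rose by 0.32 and 0.26 in the Glis3 and CD133 knockdowns. Of 14 glycerolipid genes, Agpat3 and Lpin1 rose in both knockdowns, and the lipid droplet protein Plin2 fell in the Glis3 knockdown (log2 fold change -0.60, adjusted p = 0.0139).

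**Figure D5:**
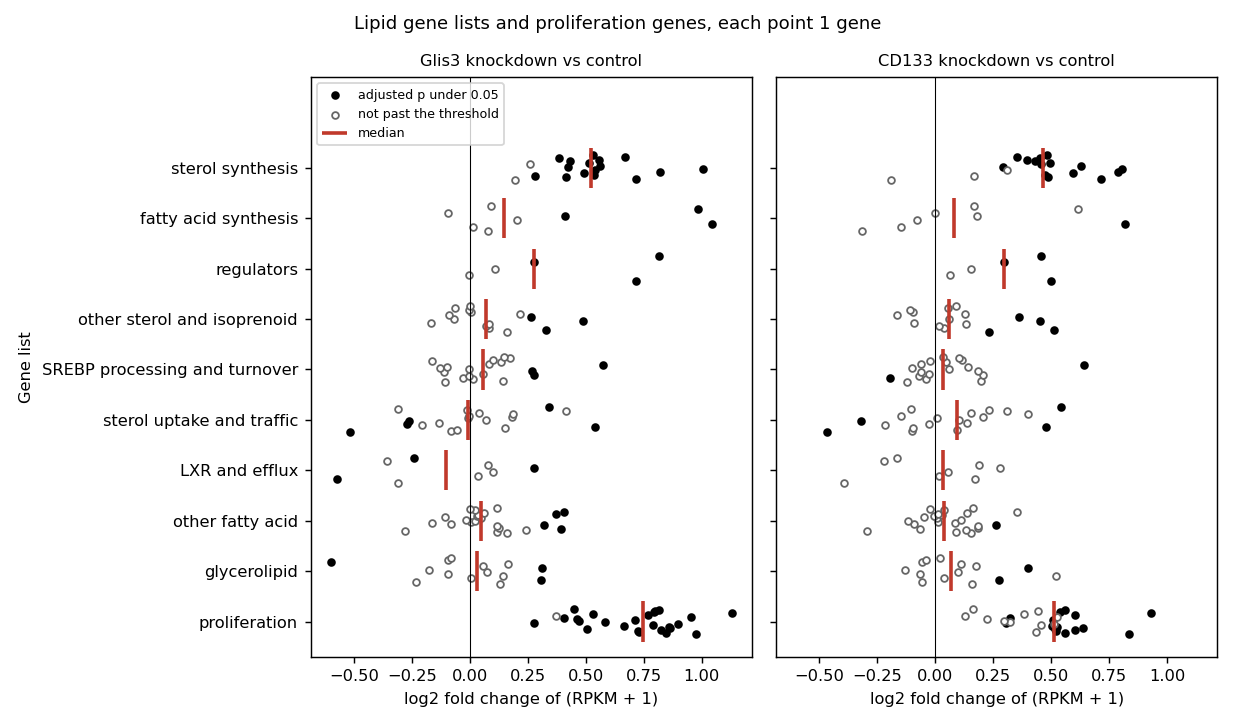
Log2 fold change of (RPKM + 1) of each gene of 10 lists in the Glis3 knockdown (left) and the CD133 knockdown (right) against control; each point is 1 gene, filled where its adjusted p is under 0.05, and red lines are medians. Sterol synthesis and proliferation genes lie furthest to the right as lists, with Glis3 knockdown medians of 0.52 and 0.75.

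Proliferation genes moved in the same libraries. Of 26 genes of mitosis and DNA synthesis, 25 rose in the Glis3 knockdown (8.39% of all genes) and 15 in the CD133 knockdown (8.16% of all genes), with 0 falls and medians of 0.75 and 0.51. Their summed level was 452.8 and 568.7 RPKM in Glis3 knockdown libraries 1 and 3, 449.4 and 408.1 RPKM in CD133 knockdown libraries 1 and 3, and 304.5 and 327.4 RPKM in control libraries 1 and 3. In each group the library with the higher proliferation sum was also the one with the higher sterol sum, and the part of cell division in the sterol values was not tested. Pparg, an adipocyte regulator also found in epithelia, was the only 1 of 6 adipocyte markers measured, at 6.02 and 6.27 RPKM in Glis3 knockdown, 3.63 and 3.83 RPKM in CD133 knockdown and 4.13 and 4.66 RPKM in control libraries; it rose in the Glis3 knockdown (0.41, adjusted p = 0.0192).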

How the data were processed

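RNA of 6 libraries was sequenced after poly(A) selection with a stranded kit, per the labels' protocols. The authors deposited 1 RPKM table of 11164 genes, rounded to 2 decimals. Its making, per the submitters' processing notes, involved TopHat2, HTSeq, build mm10 and bcl2fastq 2.18.0.12. The sources used here give neither the annotation nor the settings nor the use of strand. Columns were matched to samples by the name in each description. Low values of short single-transcript genes (GENCODE M21) gave an estimated depth, at which 60.0% to 64.8% of values were whole to within 0.15 read. The depth was picked from a scan as the one where this share was highest. Chance gives 30% at a fixed depth and more at the best of a scan, so the depth is a rough estimate. With these shares short of all values, reads were not recovered and no count test was run.

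The 10829 genes averaging 1 RPKM or more were analysed as log2(RPKM + 1), with 3 group means in limma 3.58.1 (R 4.3.3), variance trend, 3 residual and 3.69 prior degrees of freedom, two-sided tests, and Benjamini-Hochberg adjustment over all genes per comparison. Calls are at an adjusted p under 0.05. The scale understates changes of low genes. The fit was also run on simulated data with independent noise of the spread seen here. That setting cannot speak to technical replicates or to shifts that genes of a library share. Members and lists were chosen with earlier results of these data known. All members are named; of other lists, up to 4 called genes per comparison with the largest change, or 2 by smallest p where none passed. A few genes this rule picks are not reported here. Alternatives were other pseudocounts, filters, scalings, variance models, sample subsets and a replicate block.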

Additional observations from a re-analysis of the deposited data

How the results depend on the processing

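With 2 libraries a group and 3 residual degrees of freedom, counts of calls moved with single libraries. Leaving out a library in turn assumes that a lone library varies like the other groups. Where a call was lost the cause was not tested.

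In the Glis3 knockdown against control, 1400 genes were called, 913 with a minimum mean of 5 RPKM (fewer genes tested), 608 with a replicate block and 21 to 1343 with a library left out. Sterol synthesis calls there were 16, and 0 to 15 with a library left out; fatty acid calls were 3, then 1 with the 5 RPKM minimum and 0 to 3, and regulators 3, then 0 to 3. Against control, 1278 genes were called in the CD133 knockdown, 335 with the replicate block and 0 to 1673 with a library left out. Sterol calls were 15, then 6 with the block and 0 to 15. Fatty acid calls were 1, then 2 with a pseudocount of 0.1, 2 with quantile normalization, 2 with only the 2 groups fitted, 0 with the 5 RPKM minimum and 0 to 3. Regulators were 3, then 1 with the block and 0 to 3. Between the knockdowns 440 genes were called, 79 with the block, 58 with only the 2 groups and 46 to 756 with a library left out. Sterol calls were 1, then 0 with the block, 0 with only the 2 groups and 0 to 1, and fatty acid calls were 0, then 0 to 1.

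With a library left out, Ch25h ranged over -2.634 to -2.511 in the Glis3 knockdown, -1.239 to -0.451 in the CD133 knockdown and -2.122 to -1.334 between knockdowns. Median centring took its CD133 value past the threshold (-0.898, adjusted p = 0.0477), and fitting only the 2 knockdowns took the value between them short of it (-1.728, adjusted p = 0.0663).

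Changes of sign met only uncalled values near 0. In the Glis3 knockdown Acly was -0.005 with quantile normalization, -0.042 with median centring and -0.037 to 0.069 with a library left out. With a library left out the ranges were Acaca -0.109 to 0.266, Fasn -0.206 to 0.019 and Scap -0.024 to 0.02 in the Glis3 knockdown, Fasn -0.103 to 0.099 and Fads1 -0.167 to 0.014 in the CD133 knockdown, and Hmgcs1 -0.108 to 0.177, Mvk -0.121 to 0.159, Cyp51 -0.111 to 0.118, Tm7sf2 -0.031 to 0.125, Msmo1 -0.157 to 0.02, Nsdhl -0.063 to 0.069, Dhcr7 -0.166 to 0.029, Fasn -0.204 to 0.021 and Srebf2 -0.07 to 0.03 between the knockdowns. Median centring gave Cyp51 and Nsdhl -0.001 each between knockdowns.

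The labels do not say that a library number marks a shared source, and same-numbered deviations correlated at -0.372 (Glis3 knockdown and control), -0.428 (CD133 knockdown and control) and 0.032 (both knockdowns) over 10829 genes. Values of low genes such as Fdps and Scd1 rest on few reads.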
